A study of Mus musculus with 10 samples.

Results

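The liver endothelial cell genes described here are 10 genes that mark the cells lining the blood vessels of the liver, Lyve1, Stab1, Stab2, Clec4g, Pecam1, Cdh5, Kdr, Flt1, Tek and Eng, taken by symbol from 23420 genes counted in each library. RNA-seq libraries were made from liver RNA of 5 starved and 5 fed male C57BL/6 mice aged 4 months. Starved mice had water but no food for 48 hours, and fed mice received a standard chow diet over the same time. Each library is 1 mouse, and the labels name no allele, transgene or drug. Liver RNA comes mostly from hepatocytes, so the endothelial genes were read as a minor part of each library, 5317 to 7471 reads in starved and 8447 to 10056 reads in fed libraries for all 10 genes together.

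Liver sinusoids are lined by endothelial cells that are perforated by open pores and lack a continuous basement membrane. These cells clear hyaluronan, collagen fragments and modified proteins from blood through scavenger receptors, a task for which the stabilins, LYVE1 and several lectins are known. They also carry the receptors for VEGF, angiopoietin and BMP ligands that maintain vessels, most of which are shared with endothelial cells of other organs.

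Reads assigned to genes numbered 18197194 to 28065220 per starved and 22978413 to 29941358 per fed library. Starved livers 2 and 4 differed most from their group. Pearson's r of log2 CPM over the tested genes was 0.938 to 0.968 between starved library 2 and the other starved libraries, 0.968 to 0.975 between starved library 4 and the others, 0.985 to 0.992 among the remaining 3, and 0.987 to 0.992 among fed libraries. Levels are CPM, counts per 1000000 assigned reads, after TMM scaling. This scaling adjusts for library composition on the assumption that most genes do not change. Its factors were 0.850 to 0.987 in starved and 1.01 to 1.10 in fed libraries, so it differed between the groups. A gene is said to have risen or fallen where edgeR's quasi-likelihood test gave an adjusted p under 0.05 over all 12796 tested genes. Nothing beyond the labels says how the mice were housed, so p-values measure the spread between these livers. All 10 endothelial genes passed the filter on low counts. Among the markers of other cell types, several had 0 reads or were too low to test. All 12 hepatocyte markers were tested, and their summed level was 146862 to 223941 CPM in starved and 129932 to 178671 CPM in fed libraries.

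Starvation did not move the 10 genes together. Lyve1 and Flt1 rose, Clec4g, Kdr, Stab2 and Stab1 fell, and Pecam1, Cdh5, Tek and Eng did not pass the test. The 6 calls among 10 genes stand against 38.6% of all tested genes called in either direction, the 2 higher against 18.6% and the 4 lower against 20.0%. The median log2 fold change of the 10 genes was −0.28, against 0.00 over all tested genes. When CPM were scaled by library totals alone, the median over all tested genes moved by −0.15, and 1 of the 10 was called higher and 7 lower. Summed over the 10 genes, the level was 288 ± 29.9 CPM in starved and 329 ± 22.7 CPM in fed livers (SD, n = 5 each). With TMM scaling the range was 252 to 327 CPM in starved and 303 to 353 CPM in fed livers, so that the groups overlapped. With library totals alone it was 244 to 292 CPM in starved and 309 to 389 CPM in fed livers, without overlap. In RNA from whole tissue, fewer endothelial cells and less RNA of a gene per endothelial cell cannot be told apart.

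**Figure D1:**
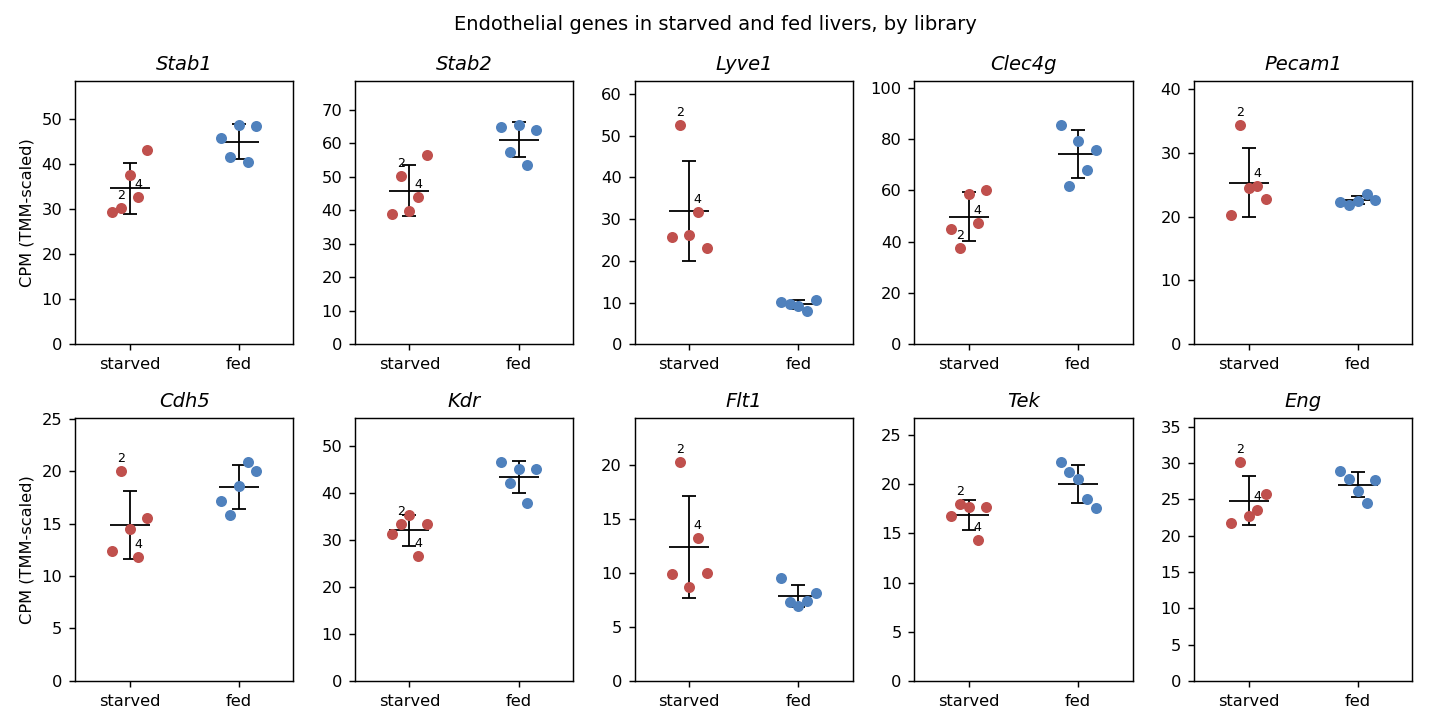
TMM-scaled CPM of the 10 endothelial genes in starved (left, red) and fed (right, blue) livers, with 1 point per library and black bars for mean and SD (n = 5 each); starved libraries 2 and 4 are numbered. Lyve1 lay between 23.0 and 52.6 CPM in starved and between 7.99 and 10.7 CPM in fed livers, and starved library 2 was the highest starved library for Lyve1, Pecam1, Cdh5, Flt1, Tek and Eng.

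The scavenger receptors of the sinusoid are shown first, and they moved in opposite directions. Lyve1, a receptor that binds hyaluronan and marks both sinusoidal and lymphatic endothelium, lies on chromosome 7 (110850607 to 110863239, mm10). It was at 25.8, 52.6, 26.2, 31.7 and 23.0 CPM in starved livers 1 to 5, and at 10.1, 9.74, 9.23, 7.99 and 10.7 CPM in fed livers 1 to 5. The lowest starved liver was thus above the highest fed liver, while fed livers lay close together and starved liver 2 lay above the rest. The mean was 31.8 ± 12.0 CPM in starved and 9.54 ± 1.01 CPM in fed livers (SD, n = 5 each), a 3.34-fold increase (log2 fold change 1.74 ± 0.21 SE, adjusted p = 0.00017, edgeR's quasi-likelihood test). Increases of at least 2-fold were called in 5.44% of all tested genes. Without starved libraries 2 and 4 the log2 fold change was 1.41 ± 0.11 (adjusted p = 2.1e-06, edgeR), and Lyve1 was called under all 20 alternatives, with log2 fold changes of 1.41 to 1.84.

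Clec4g, the C-type lectin known as LSECtin that binds glycans on viruses and cells, lies on chromosome 8 (3707064 to 3720651). It stood at 45.1, 37.4, 58.7, 47.3 and 60.3 CPM in starved livers 1 to 5, and at 85.6, 61.7, 79.2, 68.1 and 75.8 CPM in fed livers 1 to 5. The groups did not overlap, but the highest starved liver came within a small distance of the lowest fed liver. Clec4g fell to 49.8 ± 9.63 CPM in starved livers, against 74.1 ± 9.38 CPM in fed livers (log2 fold change −0.57 ± 0.14 SE, adjusted p = 0.00905, edgeR). It was lowest in starved liver 2, the liver in which Lyve1 was highest, and without starved libraries 2 and 4 its log2 fold change was −0.42 (adjusted p = 0.0183, edgeR).

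Stab2 encodes stabilin-2, the main clearance receptor for hyaluronan in the circulation, and lies on chromosome 10 (86841198 to 87008025). It was at 38.9, 50.3, 39.8, 43.9 and 56.6 CPM in starved livers 1 to 5, and at 65.0, 57.5, 65.5, 53.5 and 64.0 CPM in fed livers 1 to 5. Starved liver 5 lay inside the fed range and the other 4 starved livers lay below it. Stab2 fell (45.9 ± 7.49 CPM in starved and 61.1 ± 5.33 CPM in fed livers; log2 fold change −0.41 ± 0.12 SE, adjusted p = 0.0197, edgeR), and this call was lost without starved library 4 (−0.38, adjusted p = 0.0503).

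Stab1 encodes stabilin-1, the related receptor that takes up SPARC and modified lipoproteins and is also made by macrophages, on chromosome 14 (31139013 to 31168641). It was at 29.4, 30.3, 37.6, 32.7 and 43.1 CPM in starved livers 1 to 5, and at 45.8, 41.6, 48.7, 40.5 and 48.4 CPM in fed livers 1 to 5. As for Stab2, only starved liver 5 reached the fed range. Stab1 fell by 0.38 ± 0.12 SE on the log2 scale (34.6 ± 5.72 CPM in starved and 45.0 ± 3.79 CPM in fed livers, adjusted p = 0.0287, edgeR). Leaving out any of starved libraries 1 (−0.32) and 4 (−0.34) or fed libraries 1 (−0.38), 3 (−0.35) and 5 (−0.35) ended the call, as did leaving out starved libraries 2 and 4 together (−0.28, adjusted p = 0.0759, edgeR). Stab1 overlaps Nt5dc2 on the opposite strand, which fell as well (−0.72 ± 0.20) at much lower levels than Stab1 (2.21 CPM in starved and 3.62 CPM in fed livers), and whether the counting used strand is not known here. Antisense or pseudogene models also lie opposite Stab2, Clec4g and Cdh5 in the annotation.

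The proportions of the stabilins and Lyve1 were also compared within each library. The log2 ratio of Stab2 to Stab1 reads was 0.41 ± 0.23 in starved and 0.44 ± 0.04 in fed livers (SD, n = 5 each). The number of Stab2 reads per Lyve1 read was 1.51, 0.957, 1.52, 1.39 and 2.46 in starved livers 1 to 5, and 6.45, 5.90, 7.10, 6.70 and 6.00 in fed livers 1 to 5. Lyve1 made up 7.47% to 16.1% of the reads of the 10 genes in starved and 2.64% to 3.18% in fed libraries. These ratios were chosen after the values were seen and carry no test.

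Promoters are shown for 3 of the genes that fell, Stab1, Stab2 and Clec4g, and for Flt1, which rose, as examples that hold the ETS motif, from genes whose levels moved apart. Each runs 5′ to 3′ from 250 bases before the RefSeq transcription start to 50 bases after it (build GRCm38.p6, which has the coordinates of mm10), and capitals mark AGGAAG, a form of the core motif of ETS factors, or its reverse complement.
Stab1 (chr14:31168592-31168891, minus strand): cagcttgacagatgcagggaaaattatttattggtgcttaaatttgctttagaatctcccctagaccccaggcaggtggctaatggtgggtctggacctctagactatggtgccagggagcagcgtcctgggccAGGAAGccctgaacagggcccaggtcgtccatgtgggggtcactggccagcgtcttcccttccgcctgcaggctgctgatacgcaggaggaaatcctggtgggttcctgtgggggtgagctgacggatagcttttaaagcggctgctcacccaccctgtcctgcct
Stab2 (chr10:87007893-87008192, minus strand): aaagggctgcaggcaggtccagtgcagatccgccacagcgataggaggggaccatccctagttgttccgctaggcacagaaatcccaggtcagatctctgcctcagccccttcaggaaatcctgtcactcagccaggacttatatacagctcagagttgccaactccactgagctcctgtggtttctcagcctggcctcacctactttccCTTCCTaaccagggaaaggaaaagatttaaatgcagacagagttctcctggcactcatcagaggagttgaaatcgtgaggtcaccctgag
Clec4g (chr8:3720602-3720901, minus strand): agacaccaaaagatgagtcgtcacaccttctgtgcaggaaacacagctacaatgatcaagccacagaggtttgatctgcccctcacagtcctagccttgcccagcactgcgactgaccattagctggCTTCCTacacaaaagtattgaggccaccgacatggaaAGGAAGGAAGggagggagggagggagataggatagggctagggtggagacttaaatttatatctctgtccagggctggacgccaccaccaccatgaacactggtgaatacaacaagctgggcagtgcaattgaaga
Flt1 (chr5:147725962-147726261, minus strand): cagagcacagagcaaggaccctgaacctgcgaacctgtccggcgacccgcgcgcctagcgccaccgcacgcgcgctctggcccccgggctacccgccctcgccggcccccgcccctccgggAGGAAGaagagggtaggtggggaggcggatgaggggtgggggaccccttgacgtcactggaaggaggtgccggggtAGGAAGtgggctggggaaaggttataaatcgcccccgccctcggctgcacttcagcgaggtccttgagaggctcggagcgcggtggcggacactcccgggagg
RefSeq promoters of this length were matched for 7 of the 10 genes. None was matched for Lyve1, Pecam1 and Cdh5, so these were not searched. AGGAAG was found on either strand in the promoters of Stab1, Stab2, Clec4g, Flt1 and Eng, against 35.4% of 32851 promoters of the same length. It occurred in genes that fell and in a gene that rose, and the promoter of Kdr, which fell, had 0 matches. The motif AACAGGAA of paired FOX and ETS sites, which can share bases with AGGAAG, was found in 0 of the 7 and in 2.65% of all promoters, and the GATA motif AGATAA and the SOX motif AACAAT were found in Tek alone, against 11.2% and 10.7% of all promoters. Such a match is a description of letters and not of a bound site.

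The junction proteins of endothelial cells did not pass the test with all libraries. Pecam1, an adhesion protein of endothelial cells, platelets and leukocytes, lies on chromosome 11 (106654217 to 106750628). It was at 20.3, 34.4, 24.5, 24.8 and 22.8 CPM in starved livers 1 to 5, and at 22.3, 21.9, 22.5, 23.6 and 22.6 CPM in fed livers 1 to 5. Starved liver 1 lay below the narrow fed range, starved liver 5 inside it, and the other 3 above it. The mean was 25.4 ± 5.34 CPM in starved and 22.6 ± 0.621 CPM in fed livers (log2 fold change 0.17 ± 0.13 SE, adjusted p = 0.331, edgeR), and the log2 fold change was 0.02 ± 0.08 without starved libraries 2 and 4.

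Cdh5 encodes VE-cadherin, the adherens junction cadherin of endothelium, on the same chromosome as Clec4g (104101625 to 104144511). It was at 12.4, 20.0, 14.5, 11.8 and 15.5 CPM in starved livers 1 to 5, and at 17.1, 15.8, 18.6, 20.9 and 20.0 CPM in fed livers 1 to 5. All starved livers but the second lay below the fed range. Cdh5 was not called (14.8 ± 3.26 CPM in starved and 18.5 ± 2.07 CPM in fed livers; −0.32 ± 0.15, adjusted p = 0.115, edgeR), but it was called lower without starved library 2 (−0.44, adjusted p = 0.0107), without starved libraries 2 and 4 (−0.37, adjusted p = 0.0225) and with library totals alone (−0.49, adjusted p = 0.0142).

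Kdr and Flt1, both VEGF receptors, moved in opposite directions. Kdr encodes VEGFR2, the main signalling receptor of VEGF-A, on chromosome 5 (75932827 to 75978458). It was at 31.2, 33.4, 35.3, 26.6 and 33.4 CPM in starved livers 1 to 5, and at 46.6, 42.1, 45.0, 37.8 and 45.1 CPM in fed livers 1 to 5. The groups did not overlap, and this held for 3 of the 10 endothelial genes, Lyve1, Clec4g and Kdr, against 29.9% of all tested genes. Lyve1 was the 1 gene wholly above the fed livers, against 13.2% of tested genes, and Clec4g and Kdr the 2 wholly below, against 16.7%. Kdr fell to 32.0 ± 3.33 CPM in starved livers, against 43.3 ± 3.48 CPM in fed livers (log2 fold change −0.44 ± 0.10 SE, adjusted p = 0.00659, edgeR), and it was called lower under all 20 alternatives, at −0.60 to −0.36.

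Flt1 encodes VEGFR1, which binds VEGF-A and PlGF tightly and also exists as a secreted decoy, on the same chromosome as Kdr (147561604 to 147726011). It was at 9.92, 20.3, 8.65, 13.2 and 9.97 CPM in starved livers 1 to 5, and at 9.55, 7.32, 6.95, 7.40 and 8.13 CPM in fed livers 1 to 5. Starved livers 2 and 4 were the highest of all, while starved liver 3 lay inside the fed range and starved livers 1 and 5 just above it. Flt1 rose by a log2 fold change of 0.66 ± 0.22 SE (12.4 ± 4.72 CPM in starved and 7.87 ± 1.03 CPM in fed livers, adjusted p = 0.0336, edgeR). Without starved libraries 2 and 4 it was 0.29 ± 0.12 (adjusted p = 0.0788, edgeR) and not called. The call was also lost without starved library 4 (0.66) or fed library 2 (0.63), 3 (0.61), 4 (0.63) or 5 (0.67), with library totals alone (0.47) and with a replicate block (0.59). The number of Kdr reads per Flt1 read was 3.15, 1.64, 4.07, 2.02 and 3.35 in starved livers 1 to 5, and 4.88, 5.75, 6.48, 5.11 and 5.54 in fed livers 1 to 5, with no overlap between the groups. This ratio carries no test. It sets a gene that fell over a gene that rose, so it adds no separate support for either call.

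Among the ligands of these receptors, Vegfa, the main angiogenic factor, was at 59.8 CPM in starved and 58.2 CPM in fed livers (log2 fold change 0.04 ± 0.15, adjusted p = 0.860, edgeR) and was not called. Vegfb, a ligand of VEGFR1, fell to 0.824 CPM in starved livers, against 2.19 CPM in fed livers (−1.38 ± 0.26, adjusted p = 0.00176, edgeR). Vegfc, the lymphatic ligand, was not called (3.34 CPM in starved and 2.86 CPM in fed livers, 0.22 ± 0.17). Nor was its receptor Flt4, at 14.6 to 37.6 CPM in starved and 22.5 to 28.5 CPM in fed livers (−0.29 ± 0.23, adjusted p = 0.336, edgeR), although it was called lower without starved library 2 (−0.57) and without starved libraries 2 and 4 (−0.65). Pgf, which encodes PlGF, and Figf, which encodes VEGF-D, were too low to test, at most 0.0492 and 0.723 CPM in any starved liver and 0.176 and 0.316 CPM in any fed liver. Nrp1, the co-receptor of VEGF and semaphorins, fell to 52.6 CPM in starved livers, against 117 CPM in fed livers (−1.15 ± 0.15, adjusted p = 0.0002, edgeR), with 44.6 to 57.7 CPM in starved and 85.8 to 149 CPM in fed livers. Its groups did not overlap, as was the case for Kdr.

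Tek encodes TIE2, the angiopoietin receptor, on chromosome 4 (94739289 to 94874976). It was at 16.8, 18.0, 17.7, 14.3 and 17.7 CPM in starved livers 1 to 5, and at 22.3, 21.2, 20.5, 18.5 and 17.6 CPM in fed livers 1 to 5. Starved livers 2, 3 and 5 lay just above the lowest fed liver and starved livers 1 and 4 below it. Tek was not called (16.9 ± 1.50 CPM in starved and 20.0 ± 1.94 CPM in fed livers; −0.25 ± 0.11, adjusted p = 0.0887, edgeR), except with library totals alone (−0.41, adjusted p = 0.0117). Its relative Tie1 had a log2 fold change of −0.04 ± 0.16 (adjusted p = 0.873, edgeR), and its ligands Angpt1, the agonist, and Angpt2, which can block it, were at 1.65 and 0.597 CPM in starved and 1.81 and 0.613 CPM in fed livers. None of the 3 was called.

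Eng encodes endoglin, the co-receptor for BMP9 and TGF-β, on chromosome 2 (32646595 to 32682669). It was at 21.7, 30.2, 22.7, 23.6 and 25.7 CPM in starved livers 1 to 5, and at 28.9, 27.8, 26.1, 24.5 and 27.7 CPM in fed livers 1 to 5. The groups overlapped through starved livers 2 and 5. Eng was not called (24.8 ± 3.37 CPM in starved and 27.0 ± 1.72 CPM in fed livers; −0.12 ± 0.11, adjusted p = 0.384, edgeR), except with library totals alone (−0.29, adjusted p = 0.0377). It overlaps Fpgs on the opposite strand, which was at higher levels (85.5 CPM in starved and 68.3 CPM in fed livers) and was not called. Gdf2, which encodes BMP9, was at 19.1 CPM in starved and 23.2 CPM in fed livers (−0.28 ± 0.11, adjusted p = 0.0618, edgeR), and Acvrl1, the ALK1 receptor that endoglin assists, at 2.55 CPM in starved and 3.57 CPM in fed livers (−0.48 ± 0.19, adjusted p = 0.0575, edgeR). Neither was called in this fit, but Gdf2 was called lower in 5 of 20 alternatives and Acvrl1 in 3. Among these were library totals alone for both (−0.44 and −0.64) and limma-voom for Acvrl1 (−0.50).

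Of 33 genes of the VEGF, angiopoietin and endoglin systems, 29 were tested, of which 2 rose and 5 fell, with a median log2 fold change of −0.04. Over all tested genes, 18.6% were called higher and 20.0% lower. Besides Vegfb and Nrp1, Ctnnb1, the β-catenin that binds VE-cadherin and also transmits Wnt signals in hepatocytes, fell (−0.57 ± 0.19), as did Smad5 and Smad6, which transmit and inhibit BMP signals (−0.32 ± 0.11 and −0.44 ± 0.13). A replicate block ended both of these calls (−0.33 and −0.44), as did leaving out starved library 5 or any 1 fed library for Smad5 (−0.34 to −0.32), and starved library 4 or fed library 2 or 4 for Smad6 (−0.40 to −0.35). Tgfbr2 and Tgfbr1, the TGF-β receptors, rose (1.14 ± 0.35 and 0.50 ± 0.18). Tgfbr2 reached 135 CPM in 1 starved liver, and its log2 fold change was 0.45 without starved libraries 2 and 4, where it was still called. Its call was lost without fed library 1 (1.05) or 3 (1.13). The call of Tgfbr1 was lost in 13 of 20 alternatives, and that of Ctnnb1 without starved library 4 or fed library 2, 3, 4 or 5, at −0.57 to −0.53. Without starved libraries 2 and 4, and also with library totals alone, 1 gene of this list rose and 8 fell, of 29 tested. Over all genes, 2647 rose and 2705 fell of 13080 tested in the first fit, and 1490 rose and 3490 fell of 12796 in the second.

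The reads of each gene were then set against those of Pecam1 in the same library, which takes the scaling between libraries out of the comparison. Over 9 such ratios, the log2 ratio of Lyve1 to Pecam1 was 0.28 ± 0.24 in starved and −1.25 ± 0.19 in fed livers, a difference of 1.53 (exact two-sided permutation p = 0.00794, the smallest that 5 against 5 libraries allow; p = 0.0179 with Benjamini-Hochberg adjustment over the 9). The ratio of Flt1 was also higher in starved livers, at −1.08 ± 0.28, against −1.53 ± 0.19 in fed livers (difference 0.45, exact permutation p = 0.0238, adjusted p = 0.0268). The ratios of Clec4g, Kdr, Stab2, Stab1, Cdh5, Tek and Eng were lower in starved livers, by differences of −0.73, −0.59, −0.57, −0.53, −0.48, −0.39 and −0.28 (exact permutation, adjusted p between 0.0179 and 0.0317).

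**Figure D2:**
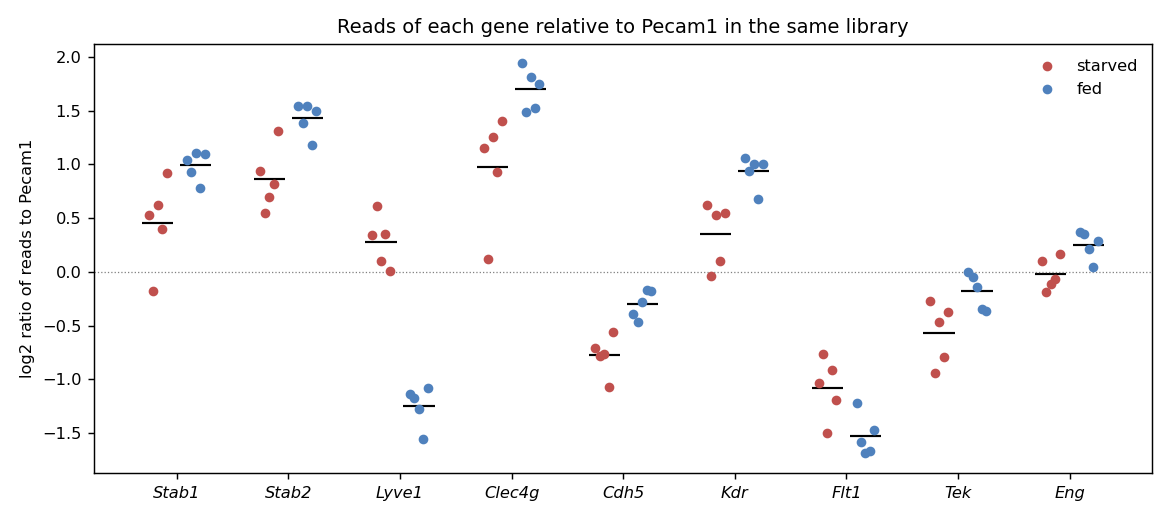
Log2 ratio of each gene's reads to the Pecam1 reads of the same library in starved (left of each pair, red) and fed (right, blue) livers; points are libraries and black lines are means. The ratio of Lyve1 was 0.01 to 0.61 in starved and −1.56 to −1.08 in fed livers, and that of Clec4g 0.12 to 1.40 in starved and 1.49 to 1.94 in fed livers.

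These ratios depend on Pecam1, which was highest in starved library 2. With Cdh5 in its place, 3 of 9 ratios passed, and those of Stab1, Stab2, Kdr and Clec4g did not pass (−0.05, −0.09, −0.11 and −0.25). Leaving out starved library 2 or starved library 4 ended the calls of the Flt1, Tek and Eng ratios, at 0.37, −0.30 and −0.23 without library 2 and 0.41, −0.33 and −0.26 without library 4. Leaving out fed library 2 or 3 also ended the calls of these 3 ratios, and leaving out fed library 1 those of Tek and Eng. The differences were then 0.41 to 0.44 for Flt1, −0.38 to −0.34 for Tek and −0.29 to −0.25 for Eng. Without starved libraries 2 and 4 together, 3 against 5 libraries remained and 0 of 9 ratios passed after adjustment by the exact permutation test, while 5 had an unadjusted p under 0.05. The difference of the Lyve1 ratio was then 1.40 (exact permutation, adjusted p = 0.0536). The smallest p that 3 against 5 libraries allow is 0.0179, so even a ratio with no overlap between groups can fail after adjustment.

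Levels of different genes were compared as CPM per kilobase of merged exons, the union of all annotated exons of a gene. In starved livers the order was Clec4g (20.2 ± 3.91), Lyve1 (10.9 ± 4.12), Eng (6.12 ± 0.832), Stab2 (5.24 ± 0.855), Pecam1 (4.07 ± 0.857), Tek (3.58 ± 0.318), Kdr (3.54 ± 0.369), Cdh5 (3.53 ± 0.776), Stab1 (3.36 ± 0.556) and Flt1 (0.919 ± 0.350). In fed livers it was Clec4g (30.1 ± 3.81), Stab2 (6.98 ± 0.609), Eng (6.67 ± 0.426), Kdr (4.80 ± 0.385), Cdh5 (4.39 ± 0.493), Stab1 (4.37 ± 0.369), Tek (4.25 ± 0.412), Pecam1 (3.62 ± 0.0997), Lyve1 (3.27 ± 0.347) and Flt1 (0.583 ± 0.0764). Lyve1 was thus 2nd in starved and 9th in fed livers, while Clec4g was 1st and Flt1 10th in both. From Pecam1 to Stab1 in starved livers, and from Stab2 to Eng and from Kdr to Tek in fed livers, neighbours in the order differed by less than the larger of their SDs. The merged exons of Flt1 come to 13504 bases over all its isoforms, which lowers its level per length.

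**Figure D3:**
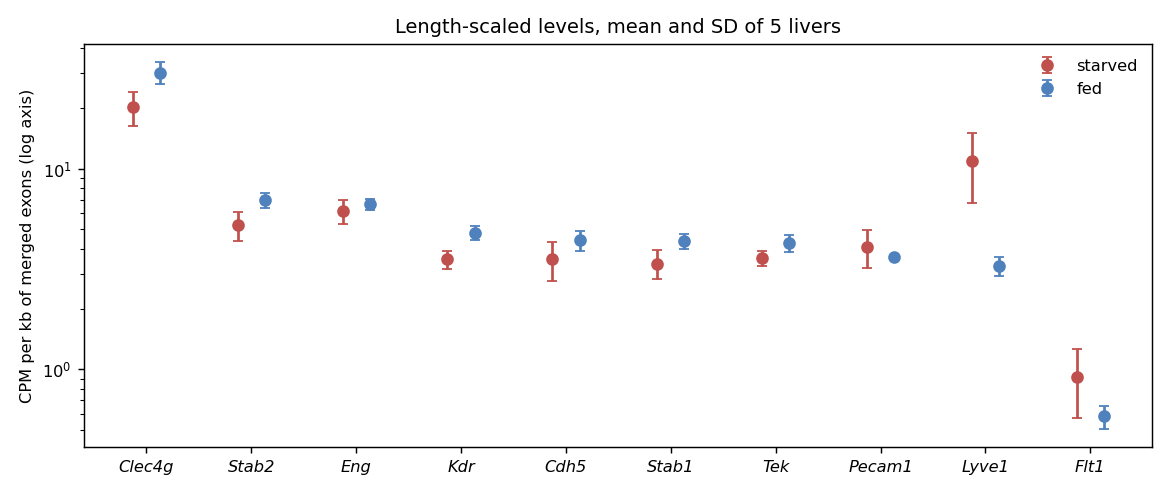
Level of each endothelial gene as CPM per kilobase of merged exons (log axis) in starved (left of each pair, red) and fed (right, blue) livers; points are means and bars SDs of 5 livers. Lyve1 was at 10.9 in starved and 3.27 in fed livers, and Clec4g at 20.2 in starved and 30.1 in fed livers.

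Of 26 other genes of sinusoidal endothelium, 24 were tested, of which 4 rose and 7 fell (median log2 fold change −0.11), against 18.6% higher and 20.0% lower over all tested genes. Thbd, thrombomodulin, the anticoagulant thrombin receptor, rose by a log2 fold change of 1.45 ± 0.23 (13.6 CPM in starved and 4.98 CPM in fed livers). Adam23, a membrane protein of the disintegrin family (0.86 ± 0.15), and Bmp2, a signal for hepatocyte iron sensing, rose too (0.41 ± 0.14). The call of Bmp2 was lost without starved libraries 2 and 4 (0.33), with library totals alone (0.24), with a replicate block (0.41), and on leaving out starved library 2 or 3 or fed library 1, 2, 3 or 4 (0.32 to 0.44). Gata6, a transcription factor, rose by 1.07 ± 0.36, but by 0.42 and without a call when starved libraries 2 and 4 were left out. Its call was lost in 10 of 20 alternatives in all, among them leaving out starved library 4 (1.14) or fed library 1 (1.06), 2 (1.08), 4 (1.07) or 5 (0.99). Among those that fell were Dnase1l3, a secreted DNase (−0.95 ± 0.16, 8.57 CPM in starved and 16.6 CPM in fed livers), Gpr182, a receptor that scavenges chemokines (−0.86 ± 0.21), and Car8, a carbonic anhydrase relative without enzyme activity (−1.06 ± 0.23, 102 CPM in starved and 211 CPM in fed livers). The scavenger receptors Mrc1, the mannose receptor, and Fcgr2b, the inhibitory Fc receptor, fell with the stabilins (−0.50 ± 0.10 and −0.57 ± 0.12), as did F8, coagulation factor VIII (−0.45 ± 0.10). Without starved libraries 2 and 4, 2 of 25 tested genes of this list rose and 8 fell, against 2647 higher and 2705 lower of all 13080 tested genes. With library totals alone 2 of 24 rose and 9 fell, against 1490 higher and 3490 lower of all 12796.

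Of 44 genes of endothelium in general, 42 were tested, of which 4 rose and 6 fell (median −0.04), against 18.6% higher and 20.0% lower over all tested genes. Cd93, a lectin-like surface protein (1.35 ± 0.26, 23.7 CPM in starved and 9.31 CPM in fed livers), Nos3, the endothelial nitric oxide synthase (1.02 ± 0.21), and Gpr116, an adhesion receptor (0.94 ± 0.19), rose without overlap between groups, as did Esam, an adhesion molecule (0.55 ± 0.16). S1pr1, the sphingosine 1-phosphate receptor that tightens endothelial barriers, fell to 28.2 CPM in starved livers, against 84.5 CPM in fed livers (−1.58 ± 0.24, adjusted p = 0.00062, edgeR). Ecscr, an endothelial regulator of chemotaxis (−0.84 ± 0.22), and Dll4, a Notch ligand (−0.70 ± 0.23), also fell, at low levels (1.71 and 1.67 CPM in starved and 3.06 and 2.74 CPM in fed livers). The call of Dll4 was lost in 8 of 20 alternatives, at −0.73 to −0.41, among them leaving out starved library 4 or 5 or fed library 1, 3, 4 or 5, or starved libraries 2 and 4 together. Without starved libraries 2 and 4, 5 genes of this list rose and 5 fell, of 43 tested, against 2647 higher and 2705 lower of all 13080 tested genes. With library totals alone, 4 genes of this list rose and 11 fell, of 42 tested, against 1490 higher and 3490 lower of all 12796 tested genes. The lymphatic marker Prox1, which hepatocytes also express, fell (−0.52 ± 0.17) as 1 of 4 tested lymphatic markers, and its call was lost on leaving out starved library 4 (−0.43), fed library 2 (−0.43), fed library 4 (−0.52), or starved libraries 2 and 4 (−0.28), and with a replicate block (−0.54). Ccl21a, another lymphatic marker, had 0 reads in all libraries.

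Of 11 genes for hyaluronan turnover and for ligands of the stabilins, 7 were tested, of which 1 rose and 3 fell, against 18.6% higher and 20.0% lower over all tested genes. Hyal2, which cleaves hyaluronan, rose (0.41 ± 0.12) but was not called with library totals alone (0.25). Cd44, the other major hyaluronan receptor (−0.78 ± 0.23), Sparc, a matrix protein taken up by stabilin-1 (−0.39 ± 0.13), and Tgfbi, another ligand of the stabilins (−0.32 ± 0.12), fell. The calls of Cd44, Sparc and Tgfbi were lost in 4, 7 and 12 of 20 alternatives, with log2 fold changes of −0.93 to −0.48, −0.55 to −0.30 and −0.48 to −0.24. The hyaluronan synthases Has1, Has2 and Has3 were too low to test.

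Markers of the other cells of the liver are given beside these results. Their counts stand against 18.6% higher and 20.0% lower over all tested genes. Of 15 Kupffer cell markers 13 fell and 0 rose (0 also at an unadjusted p under 0.05 with edgeR and 0 with DESeq2), with a median log2 fold change of −0.92 and a summed level of 281 to 530 CPM in starved and 624 to 1011 CPM in fed livers. Folr2 (−2.02 ± 0.24), Emr1, which encodes F4/80 (−1.51 ± 0.23), and Cd5l (−1.29 ± 0.33) had the largest falls, Marco (−0.78 ± 0.58) and Cd163 (−0.16 ± 0.15) were not called, and when starved libraries 2 and 4 were left out, 13 markers fell and the median was −0.74. Stab1 is also expressed by macrophages, as are Mrc1, Fcgr2b and Lyve1 in some tissues. The part of macrophages in the results for these genes was not tested.

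Of 14 stellate cell markers 3 rose and 3 fell (median −0.28; summed level 570 to 837 CPM in starved and 585 to 674 CPM in fed livers). Dcn, decorin, rose (0.49 ± 0.13), as did Hand2 (0.45 ± 0.15), whose call was lost when fed library 2 (0.40), 3 (0.46) or 4 (0.39) was left out, when starved libraries 2 and 4 were (0.40), with library totals alone (0.28) and with a replicate block (0.46). Lox, which cross-links collagen, rose as well (2.38 ± 0.33) at under 1 CPM. Col3a1 fell to 5.78 CPM in starved livers, against 28.9 CPM in fed livers (−2.32 ± 0.23), and Col1a1 (−1.04 ± 0.23) and Ngfr (−0.81 ± 0.23) fell too.

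Of 7 tested lymphocyte markers 2 fell and 0 rose (0 at an unadjusted p under 0.05 with edgeR and 0 with DESeq2), with a summed level of 9.62 to 18.8 CPM in starved and 21.3 to 31.7 CPM in fed livers. Ptprc, which encodes CD45, was among those that fell (−0.93 ± 0.18). Of 7 tested cholangiocyte markers, only Spp1, osteopontin, passed the test, and it fell (−0.96 ± 0.29; list sum 19.9 to 45.2 CPM in starved and 49.0 to 61.8 CPM in fed livers). Of 9 neutrophil markers 4 were tested, and Ngp, Camp, Ltf, Mpo and Elane were too low to test. Csf3r was not called (0.11 ± 0.25), and 3 rose, Retnlg (3.12 ± 0.66), S100a9 (2.04 ± 0.48) and S100a8 (1.96 ± 0.45). The list sum was 4.17 to 25.0 CPM in starved and 3.71 to 5.84 CPM in fed livers. For S100a9 and S100a8 the groups overlapped. The log2 fold changes of Retnlg, S100a9 and S100a8 were 1.67, 1.46 and 1.09 without starved libraries 2 and 4.

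Of 4 tested red cell markers 3 fell, among them Slc4a1, band 3 (−2.28 ± 0.45), and Alas2, the enzyme that starts haem synthesis in red cells (−1.38 ± 0.28). The list sum was 167 to 600 CPM in starved and 455 to 651 CPM in fed livers. Most of it was the globin gene Beta-s, at 157 to 574 CPM in starved and 420 to 603 CPM in fed livers. Beta-s was not called (−0.88 ± 0.33, adjusted p = 0.0515, edgeR), although all 4 were called lower by DESeq2 and with library totals alone. Hba-a1, Hba-a2 and Hbb-b1 had 0 reads in all libraries. Reads aligned to several places are not counted, so 0 reads need not mean that RNA was absent. Of 4 tested smooth muscle markers 0 were called by edgeR, 0 had an unadjusted p under 0.05 and 0 were called by DESeq2, Tagln being at 4.71 CPM in starved and 5.03 CPM in fed livers and Myh11 at 2.31 CPM in starved and 2.50 CPM in fed livers (list sum 7.59 to 13.2 CPM in starved and 9.19 to 11.8 CPM in fed livers). Of 12 hepatocyte markers 4 rose and 2 fell, with Tat (2.38 ± 0.41), Cps1 (1.63 ± 0.30) Apoa1 (0.99 ± 0.20) and Hnf4a (0.51 ± 0.18) higher and Ttr (−0.88 ± 0.22) and Trf (−0.65 ± 0.19) lower. The call of Hnf4a was lost in 11 of 19 alternatives, without starved libraries 2 and 4 (0.20), with library totals alone (0.34), with limma-voom (0.46) and a replicate block (0.46), and on leaving out starved library 2 or 4 or any 1 fed library (0.38 to 0.53). Without starved libraries 2 and 4, Cps1 was at 1.07 and Ttr at −0.60. In that fit, 3 hepatocyte markers rose, 5 stellate, 1 lymphocyte and 2 lymphatic markers fell, and 2 cholangiocyte markers rose beside the fall of 1. With library totals alone, 3 hepatocyte markers rose and 8 stellate, 4 lymphocyte and 3 lymphatic markers fell. Over all genes, 2647 rose and 2705 fell of 13080 tested without starved libraries 2 and 4, and 1490 rose and 3490 fell of 12796 with library totals. The part of any of these cell types in the results for the 10 genes was not tested.

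**Figure D4:**
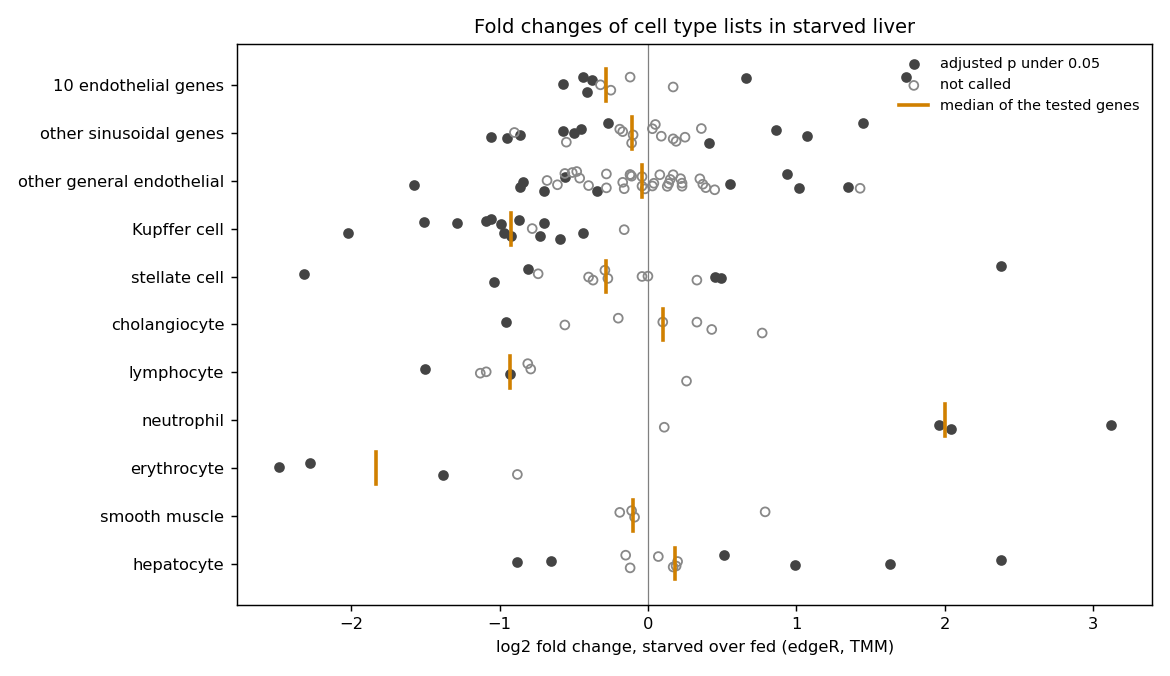
Log2 fold change of starved over fed livers (horizontal axis) for the tested genes of each cell type list (rows); filled points were called at an adjusted p under 0.05, open points were not, and orange bars are medians. The 10 endothelial genes lay on both sides of 0 with a median of −0.28, and the Kupffer cell markers had a median of −0.92.

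The 6 genes whose levels followed the mean log2 CPM of the 10 endothelial genes most closely were sought among 8973 other genes with at least 5 CPM on average, after each group's mean was subtracted. They were Plekhf2 (Pearson's r = 0.93 over 10 libraries), Lrrc32 (0.92), Fam160b1, Fam43a, Mylip and Psmd9 (0.91 each). Lrrc32, which encodes the GARP protein that anchors latent TGF-β, rose (0.72 ± 0.22, 9.72 CPM in starved and 5.90 CPM in fed livers), and leaving out fed library 2 (0.69) or 4 (0.62) or scaling by library totals alone (0.54) ended its call. Mylip, a ubiquitin ligase of the LDL receptor (0.93 ± 0.17), and Psmd9, a proteasome assembly chaperone (0.82 ± 0.11), rose too. Plekhf2 (−0.14 ± 0.25), Fam43a (−0.27 ± 0.28) and Fam160b1 (−0.03 ± 0.12) were not called, but Plekhf2 and Fam43a were called lower without starved library 2 (−0.46 and −0.61). The libraries share their scaling, and starved library 2 had the highest summed level of the 10 genes among starved libraries, 327 CPM.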

How the data were processed

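RNA-seq counts of 5 starved and 5 fed mouse livers were analysed. The submitters' processing notes name CASAVA (version 1.8.2), TopHat2 (2.0.0), Bowtie2 (2.0.0), HTSeq, edgeR (3.6.4) and build mm10, without their order. The annotation, HTSeq's version and its strand setting were not given in the sources used here. Per the labels' protocols, the TruSeq kit marks strand and used total RNA. The deposited files hold raw read counts per gene symbol, 1 file per library. The rows that tally unassigned reads were left out. Reads aligned to several places are therefore not in the counts, so genes with close copies are uncertain. Their row held 38.6% to 48.4% of the assigned and unassigned counts together.

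Counts were filtered (filterByExpr), TMM-scaled and tested with edgeR 4.0.16 in R 4.3.3, with Benjamini-Hochberg adjustment over 12796 of 23420 genes. Alternatives used limma 3.58.1, DESeq2 1.42.0, other scalings and filters, a replicate block, a stricter threshold and fewer libraries. Ratios used counts plus 0.5 and exact permutation tests. Positions and exon lengths are from GENCODE M21 (GRCm38, the same coordinates as mm10), counted from 1, and promoters from RefSeq.

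The 10 genes and the lists were chosen with earlier results of these data known, and list counts without starved libraries 2 and 4 or with library totals, and all alternatives for genes outside the naming rule, were added after seeing the data. Text names all 10 genes, a set of ligands and receptors, the 6 most alike genes and, per list, up to 3 called genes in each direction, by size of change, with 1 CPM or more in 1 group. Where a list had no call, its most abundant genes are named. Outside that rule, Bmp2, Mrc1, Fcgr2b, F8, Esam, Smad5, Smad6, Lox, Hnf4a, Flt4, Marco, Cd163, Csf3r, Beta-s, Nt5dc2 and Fpgs were picked after their values were seen. No label gives a batch. No 2 libraries of a group agreed within sampling noise.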

Additional observations from a re-analysis of the deposited data

How the results depend on the processing

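No called gene among the 10 changed direction under any of the 20 alternatives. The counts of endothelial genes higher and lower, 2 and 4, were equal under DESeq2 size factors, upper-quartile factors, the DESeq2 Wald test, limma-voom, testing every gene with reads, and keeping genes at 1 CPM or more in 5 libraries. With library totals alone they were 1 and 7, and of all genes 1490 were higher and 3490 lower, against 2379 and 2555 with TMM. At an adjusted p under 0.01 they were 1 and 2 (1272 and 1526 of all genes). The count higher was 1 with a replicate block and 1 without starved libraries 2 and 4 together. Leaving out 1 library at a time gave 1 to 2 endothelial genes higher and 2 to 5 lower, and 1868 to 2766 of all genes higher and 2043 to 2847 lower. Of the 9 ratios to Pecam1, 6 to 9 passed without 1 library and 3 with Cdh5 as denominator, where Tek and Eng turned to 0.09 and 0.20. Without starved libraries 2 and 4 the count was 0 by the exact permutation test, where the smallest possible p before adjustment is 0.0179. With a replicate block, where the smallest possible p is 0.0625, it was 0 and 0 had an unadjusted p under 0.05. The summed level of starved over fed livers was 0.877 with TMM and 0.781 with library totals. Of the 6 genes most alike, 2 were again among the first 6 when group means were not subtracted. The cause of these changes was not tested. The labels speak of 5 pairs of mice and number the livers of both groups alike, but do not say what joins a pair or that equal numbers mark one. Deviations of same-numbered livers correlated above 0.1 in 1 of 5 pairs, so the fit without the block was kept. The block ended the calls of Flt1, Prox1, Hand2, Gata6, Tgfbr1, Tgfbi, Bmp2, Smad5, Smad6 and Hnf4a. Genes near 1 CPM, such as Vegfb and Ecscr, rest on few reads.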
